A study of Mus musculus with 8 samples.

Results

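Thiolases are the enzymes that trimetazidine (TMZ) is directed against, and this is an account of their transcripts in mouse preimplantation embryos cultured with or without the drug. The 6 genes followed, Acaa2, Hadhb, Acat1, Acat2, Scp2 and Acaa1a, were taken by name as the mitochondrial, cytosolic and peroxisomal thiolases. No rule on their expression values was used, but earlier results of these data were known when they were chosen. They are 6 of the 25606 genes that could be recognised in at least 1 of the 2 deposited tables. The tables carry no gene names. Every name used here was inferred by matching the gene lengths recovered from the values, in order, to those of genes annotated in GENCODE vM39, with matches accepted where the posterior reached 0.95.

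A thiolase uses a molecule of coenzyme A to cut acetyl-CoA from a 3-ketoacyl-CoA, which is the last step of each turn of fatty acid β-oxidation, or runs the reverse reaction and joins 2 molecules of acetyl-CoA to acetoacetyl-CoA. Mitochondria hold a soluble enzyme for medium-chain substrates (Acaa2), a long-chain enzyme that is the β subunit of the mitochondrial trifunctional protein (Hadhb, whose α-subunit partner is Hadha) and an acetoacetyl-CoA thiolase of ketone body and isoleucine metabolism (Acat1). The cytosol holds the thiolase that opens the mevalonate route to sterols (Acat2), and peroxisomes hold the thiolase of straight-chain substrates (Acaa1a) and a thiolase fused to a sterol carrier protein (Scp2). TMZ is used as an inhibitor of the long-chain mitochondrial enzyme. It acts on the protein, so transcript levels do not measure its inhibition.

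RNA was measured in 4 groups of 2 libraries each: embryos collected 70 h (8-cell) or 78 h (morula) after the hCG injection, each stage with and without the drug. All embryos came from wild-type ICR mice of 7 weeks and grew in KSOM medium, and the treated groups, whose genotype field reads "TMZ inhibitor" while that of the controls reads WT, received 100 μM TMZ from the 2-cell stage. The study's methods also speak of inhibitor treatment beginning at the zygote, so this start is not certain. RNA of whole embryos was amplified as full-length mRNA, so a lower level in a pool of embryos can mean fewer cells with the transcript or less of it per cell, which cannot be told apart. In the 8-cell table a single header stands over both TMZ columns, whose libraries are therefore distinguished only as A and B.

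The recovered totals were 32489992 to 64814423 fragments in the 8-cell libraries and 31672356 to 33552381 in the morula libraries. Library A had the fewest genes above 0 of the 8-cell libraries, 19466 against 21813 to 25336 in the other 3, although its total was not the lowest. The tissue labels were checked against markers of the embryo, of which 12 of 13 reached 1 FPKM at the 8-cell stage and 11 of the 12 that were found did so at the morula stage. The entry named Sox2 was at 0 in all morula libraries. The sum of these markers was nearly all Dppa3. It ran from 10989 to 15236 FPKM in 8-cell controls and 14854 to 19722 FPKM with TMZ, and from 11188 to 13548 FPKM in control morulae and 14406 to 17873 FPKM in TMZ morulae, without overlap at the later stage. Markers of cumulus and granulosa cells, nearly all Amhr2, summed to 13.9 and 19.6 FPKM in 8-cell controls and 8.41 and 8.42 FPKM with TMZ, also without overlap, and to 7.42 to 13.3 FPKM in control and 6.42 to 8.67 FPKM in TMZ morulae. Those of sperm summed to 0.210 to 1.88 FPKM. Blood markers summed to 2.67 to 11.8 FPKM at the 8-cell stage, where 4 of 6 genes were found, and to at most 0.174 FPKM at the morula stage, where 2 were. Transcripts of the mitochondrial genome summed to 7537 to 13975 FPKM in control morulae and 13902 to 14462 FPKM in TMZ morulae, groups that overlap narrowly. The part of these marker lists in the results below was not tested. The entries named Gapdh and Tuba1b were low for genes that most cells use, at 0.938 to 3.03 FPKM and 2.07 to 8.17 FPKM, so a doubt about single names remains.

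All 6 thiolases were recognised at both stages, with posteriors of 0.973 (Acaa1a in the morula table) or higher. The recovered length equalled the annotated one for Hadhb alone, at 6595 bases, and was shorter for the other 5, as 1516 against 1751 bases for Acaa2, 3758 against 4574 for Acat1 and 2544 against 2961 for Acat2. The model accepts a shorter length, and the annotation release behind the tables is not given in the sources used here. The doubt is larger for Hadhb and Acaa1a in the morula table: with the 9 genes described here taken out of the annotation, the entry of Hadhb went to Ptk2b and that of Acaa1a to Fam110c, at posteriors over the threshold. The entries of Acaa2, Acat1, Acat2 and Scp2 then went to no gene. Of the 31-base stretches in the exons of Acat1 (chr9:53450461-53521731, minus strand) 0.641% occur elsewhere in GRCm39. The shares were higher for Hadhb (29.3%, chr5:30359204-30389997, plus strand), Scp2 (36%, chr4:107901025-108002195, minus strand), Acat2 (39.1%, chr17:13161367-13179641, minus strand) and Acaa1a (20.1%, chr9:119168742-119182956, plus strand). How reads that match several places were counted is not given in the sources used here, so the levels of these 4 genes are less certain.

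Hadhb and Hadha are neighbours that are read away from each other. Their outermost starts, in the transcripts used for gene lengths, are 64 bases apart. With all annotated transcripts, Hadhb starts at chr5:30359204, within Hadha, whose own start on the minus strand is at chr5:30360187. The genes then overlap, and the stretch between the starts used here lies within Hadhb. The 48 bases of the stretch in no annotated exon of either gene are shown because in morulae Hadha was called lower and Hadhb was not. The capitals mark its single GGGCGG, the GC box motif searched on both strands.
Hadha-Hadhb start region (chr5:30360188-30360235, GRCm39, plus strand): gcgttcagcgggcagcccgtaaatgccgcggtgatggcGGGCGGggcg
The stretch is 75% G and C. Of 21721 protein-coding genes 18.1% hold this motif in the 48 bases before their outermost start in the transcripts used for gene lengths. The match is a description of the letters and says nothing about binding.

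Levels are given in FPKM, fragment numbers divided by gene length and library total. For each stage separately, limma was run on log2(FPKM + 1), a scale on which differences of poorly expressed genes look smaller than they are, and entries averaging less than 1 FPKM were left out. A gene is called higher or lower where its log2 fold change exceeds 0.5 in size and its unadjusted P is under 0.05, and the p-values printed are adjusted over all entries by the Benjamini-Hochberg method. The study calls the libraries of a group independent biological replicates, but the sources used here do not say whether they came from separate cultures, and with 2 per group a p-value rests on the spread between these libraries.

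Acaa2, the medium-chain 3-ketoacyl-CoA thiolase of mitochondria, was the one member that fell at the threshold, and it did so in morulae. The gene (ENSMUSG00000036880, 10 merged exons) lies on the plus strand of chromosome 18 in GRCm39 at chr18:74911948-74953492, and 0% of its exonic 31-base stretches occur elsewhere. Its level was 17.6 and 22.9 FPKM in the control morulae and 10.5 and 11.5 FPKM in the TMZ morulae. Both TMZ libraries lay well below both controls, with 520 to 1165 fragments behind each value. Mean FPKM was 45.8% lower with TMZ (10.97 ± 0.716 against 20.2 ± 3.78, SD, n = 2). The log2 fold change was -0.82 (SE 0.206, 95% confidence interval -1.31 to -0.32, adjusted p = 0.167), past the threshold on unadjusted P and fold change but not on an adjusted p. Over the other settings the adjusted p ran from 0.0754 to 0.465. Across those settings and with each library left out, the log2 fold change stayed between -0.999 and -0.63, and the call held each time.

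In 8-cell embryos the controls stood at 11.04 and 11.7 FPKM of Acaa2, TMZ library A at 8.77 FPKM and library B at 5.85 FPKM. The groups did not overlap here either, but the TMZ libraries differed more from each other than the controls did. The log2 fold change of -0.60 (SE 0.367, 95% interval -1.43 to 0.24) did not pass the test (adjusted p = 0.795). Without library A it was -0.85 and past the threshold (adjusted p = 0.496), and without library B it was -0.34. With a single TMZ library left, the spread comes from the 2 controls and the fit over all entries, and the lone library is assumed to vary like them. All 8-cell entries had a median log2 fold change of -0.19, and with libraries scaled by the median of ratios, which brings that median to 0.02, Acaa2 stood at -0.37.

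**Figure D1:**
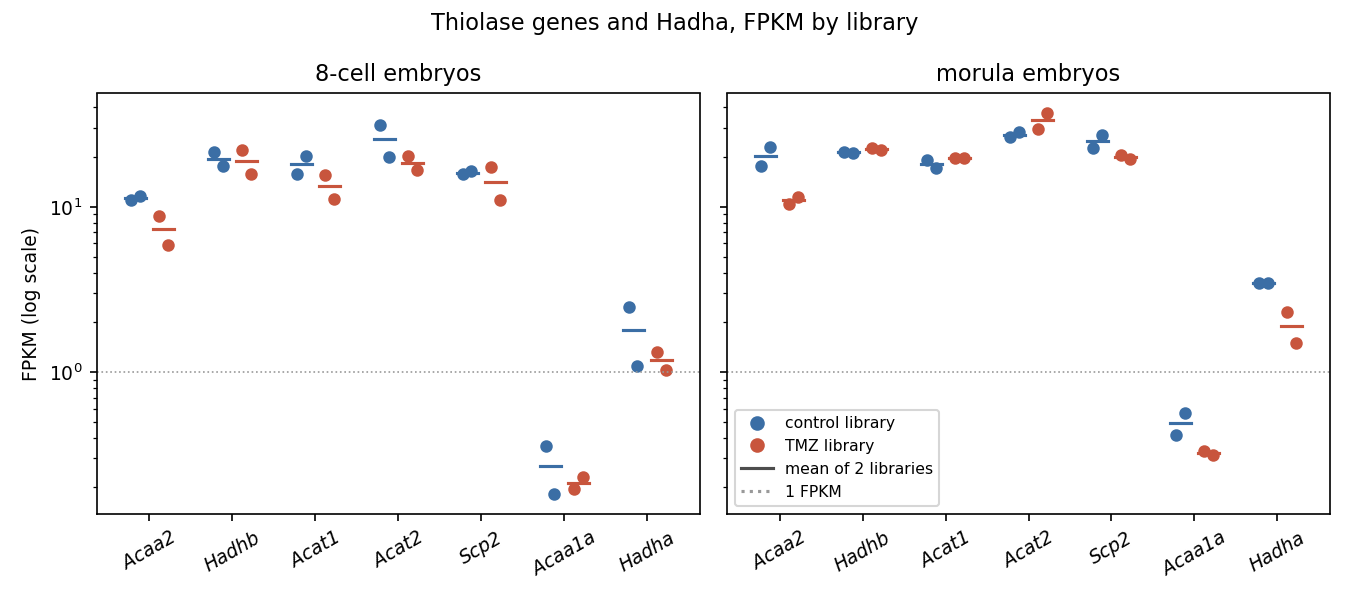
FPKM on a log axis (vertical) of the 6 thiolase genes and Hadha (horizontal) in 8-cell (left) and morula embryos (right); each point is a library, blue for control and red for TMZ, and each bar the mean of 2 libraries. In morulae the TMZ points of Acaa2 lie at 10.5 and 11.5 FPKM, below the control points at 17.6 and 22.9 FPKM, while Acaa1a lies under the dotted line of 1 FPKM in all 8 libraries.

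**Figure D2:**
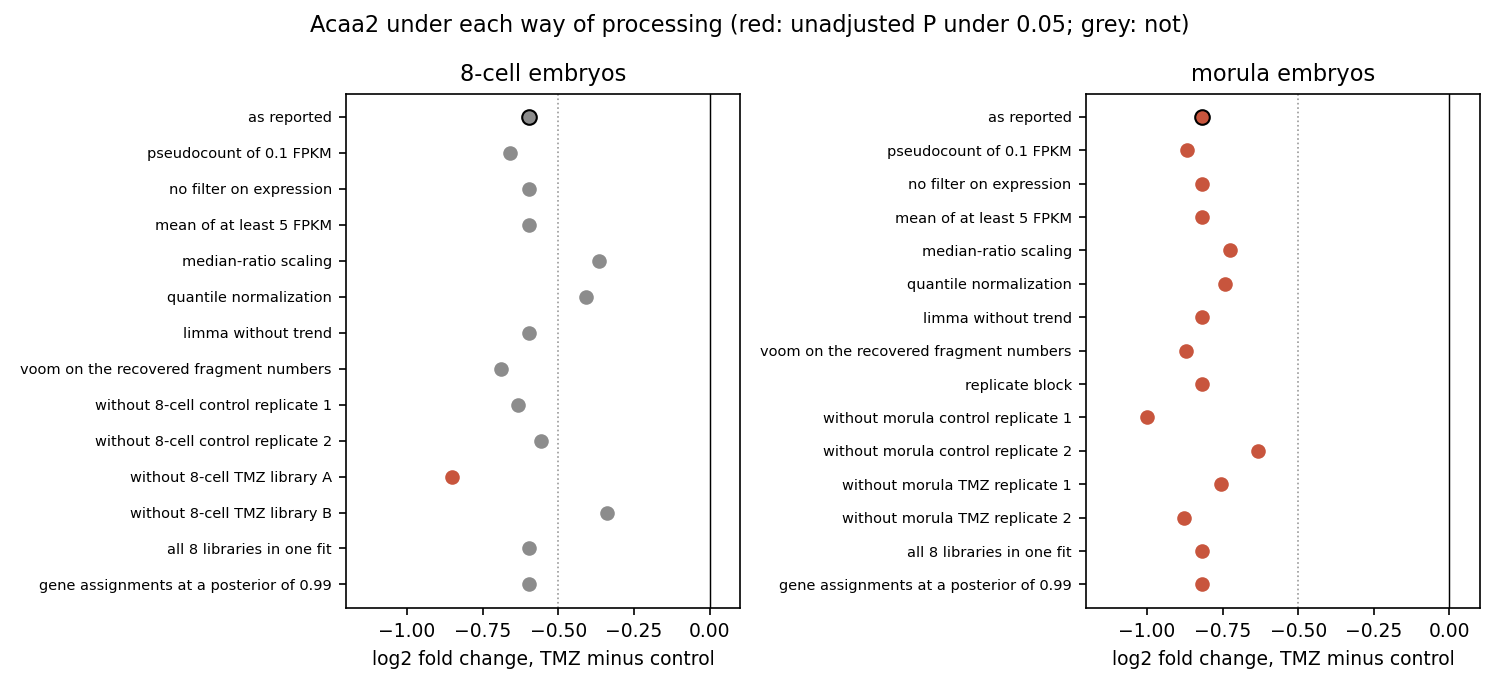
Log2 fold change of Acaa2, TMZ minus control (horizontal), under each way of processing and with each library left out (vertical), at the 8-cell stage (left) and in morulae (right); the outlined point is the value reported and the dotted line the threshold of -0.5. The morula points run from -0.999 to -0.63, all red (unadjusted P under 0.05), whereas the 8-cell points run from -0.85 to -0.34, with 1 of them red.

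Hadhb, the long-chain thiolase subunit that TMZ is meant to block, gave closely similar levels in all morula libraries. The controls held 21.6 and 21.2 FPKM and the TMZ morulae 22.7 and 22.0 FPKM, on 4592 to 4908 fragments. TMZ libraries lay above the controls by a small margin. The log2 fold change was 0.06 (95% interval -0.35 to 0.47, adjusted p = 0.857), so a change as large as that of Acaa2 lies outside the interval. In 8-cell embryos Hadhb stood at 21.4 and 17.5 FPKM in controls, 22.2 FPKM in library A and 15.7 FPKM in library B. These groups overlapped fully, and the log2 fold change of -0.05 (95% interval -0.82 to 0.72, adjusted p = 0.991) turned positive under median-ratio scaling (0.19) and quantile normalization (0.11).

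Hadha, which encodes the α subunit with the hydratase and dehydrogenase activities that precede the thiolase step, was called lower in morulae. Its values were 3.47 and 3.47 FPKM in controls against 2.31 and 1.505 FPKM with TMZ. The controls agreed closely and both TMZ libraries lay below them, at a log2 fold change of -0.64 (SE 0.235, adjusted p = 0.223). The call was lost without either control library or without TMZ replicate 2, where the fold change was -0.44, and in the fit of all 8 libraries together. Earlier, in 8-cell embryos, Hadha was at 2.48 and 1.09 FPKM in controls and 1.32 and 1.03 FPKM in libraries A and B, overlapping groups with a log2 fold change of -0.32 (adjusted p = 0.891). Part of the exons of Hadha, 23.2% of their length, overlaps Garem2 on the opposite strand, and strand settings of the counting are not given in the sources used here.

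The products of Hadha and Hadhb are subunits of 1 complex, but their transcripts differed widely in FPKM. The size of this difference depends on the exonic lengths used. Within control morulae the FPKM of Hadhb was 6.21 and 6.10 times that of Hadha, and within TMZ morulae 9.84 and 14.6 times. The 8-cell controls gave ratios of 8.63 and 16.1, library A 16.8 and library B 15.3. TMZ morulae thus lay above control morulae without overlap, and the 8-cell groups overlapped. This ratio was chosen after the values were seen. A two-sided exact permutation test of its log2 value gave p = 0.333 in morulae and p = 0.667 at the 8-cell stage. The smallest p that 2 libraries against 2 allow is 0.333. Over both stages, with labels exchanged within a stage, the exact permutation p was 0.111, where the smallest possible is 0.0556. No outcome could have come under 0.05, so these tests cannot decide whether the ratio differed.

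**Figure D3:**
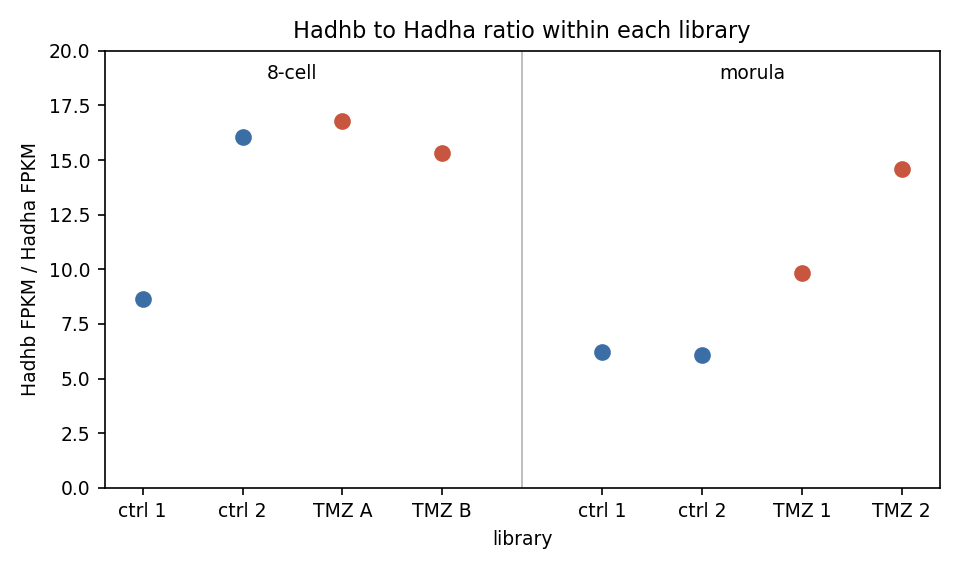
FPKM of Hadhb divided by that of Hadha (vertical) in each of the 8 libraries (horizontal), blue for control and red for TMZ, 8-cell stage on the left and morula stage on the right. Control morulae lie at 6.21 and 6.10 and TMZ morulae at 9.84 and 14.6, and 8-cell control replicate 1, at 8.63, lies apart from the other 3 libraries of its stage.

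Acat1, the mitochondrial acetoacetyl-CoA thiolase, held 19.1 and 17.1 FPKM in control morulae and 19.6 and 19.7 FPKM in TMZ morulae. The TMZ values lay just above the controls, with a log2 fold change of 0.11 (95% interval -0.31 to 0.54, adjusted p = 0.735). In 8-cell embryos the order was the opposite: 15.8 and 20.4 FPKM in controls, 15.6 FPKM in library A and 11.2 FPKM in library B. Library A lay only slightly under the lower control, and the log2 fold change of -0.41 (95% interval -1.204 to 0.38) did not pass the test (adjusted p = 0.833). Under median-ratio scaling the log2 fold change was -0.17.

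Acat2, the cytosolic acetoacetyl-CoA thiolase, had levels of 26.4 and 28.3 FPKM in control morulae and 29.5 and 37.2 FPKM in TMZ morulae. Both TMZ libraries lay above the controls, 1 of them only slightly, at a log2 fold change of 0.27 (95% interval -0.18 to 0.72, adjusted p = 0.437). In 8-cell embryos it stood at 31.4 and 19.95 FPKM in controls, 20.4 FPKM in library A and 16.6 FPKM in library B. The spread between the 8-cell controls exceeded the distance between the group means, and the log2 fold change was -0.42 (95% interval -1.22 to 0.37, adjusted p = 0.832). With median-ratio scaling Acat2 stood at -0.18. Its neighbour and close copy Acat3 lay at 0.0191 to 0.222 FPKM in all libraries. Of the 31-base stretches of Acat3 54.9% occur elsewhere, so reads of these copies may have been shared between them. Its 8-cell entry went to another gene when the 9 genes were taken out of the annotation.

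Scp2, the peroxisomal thiolase with a sterol carrier domain, was measured at 22.8 and 27.1 FPKM in control morulae and at 20.6 and 19.5 FPKM in TMZ morulae. The TMZ libraries lay below the controls, at a log2 fold change of -0.30 (95% interval -0.74 to 0.14) that did not pass the test (adjusted p = 0.384). The 8-cell controls held 15.7 and 16.5 FPKM, library A 17.4 FPKM and library B 10.99 FPKM. These values overlap, and the log2 fold change of -0.20 (adjusted p = 0.928) was 0.11 without library B and 0.03 under median-ratio scaling. The gene also gives a short transcript of the carrier domain alone from an inner start, and the tables do not separate it from the thiolase form.

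Acaa1a, the thiolase of straight-chain peroxisomal β-oxidation, was too low for the test. Control morulae gave 0.418 and 0.567 FPKM and TMZ morulae 0.332 and 0.315 FPKM, from 44 to 84 fragments. At the 8-cell stage it was 0.355 and 0.181 FPKM in controls, 0.195 FPKM in library A and 0.231 FPKM in library B, from 26 to 66 fragments. The TMZ morulae lay below the controls and the 8-cell groups overlapped. With the minimum lifted, the log2 fold changes were -0.17 in morulae (adjusted p = 0.634) and -0.06 at the 8-cell stage (adjusted p = 0.897). Its copy Acaa1b was lower still, at 0.0865 to 0.274 FPKM over all libraries. Within each library the FPKM of Scp2 was 44.4 to 91.0 times that of Acaa1a.

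Of the 5 thiolases tested, 0 were called at the 8-cell stage, where 4.96% of all 10021 entries tested were called lower and 1.35% higher. In morulae 1 of 5 was called lower, against 10.7% of the 9685 entries tested, and 0 of 5 were called higher, against 7.16%. The median log2 fold change of the 5 genes was -0.41 at the 8-cell stage, beside -0.19 for all entries, and 0.06 in morulae, beside -0.08. With median-ratio scaling these medians were -0.17, beside 0.02, at the 8-cell stage and 0.16, beside 0.006, in morulae. At an adjusted p under 0.05, limma called 0 entries of all genes at the 8-cell stage, with 632 at an unadjusted P under 0.05, and 3 (0.031%) in morulae, with 1900. Of the 5 thiolases 0 had an adjusted p under 0.05 at either stage. In 8-cell embryos both TMZ libraries lay below both controls for 2 of the 5, Acaa2 and Acat1, as they did for 29.6% of all entries, and 0 of 5 lay above, against 8.09%. In morulae this held for Acaa2 and Scp2, 2 of 5 against 33.3% of all entries, while Hadhb, Acat1 and Acat2 lay above their controls, 3 of 5 against 22.3%.

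**Figure D4:**
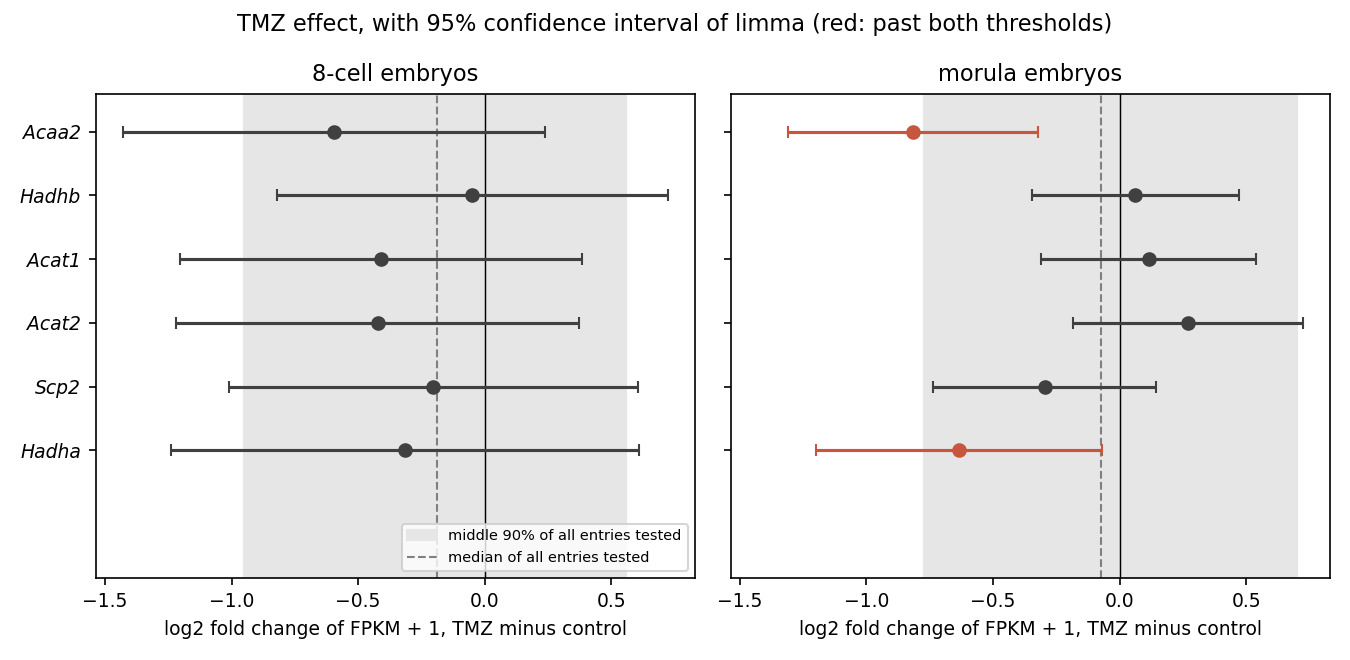
Log2 fold change of FPKM + 1, TMZ minus control (horizontal), of the 5 thiolases tested and Hadha (vertical) at the 8-cell stage (left) and in morulae (right); bars are 95% confidence intervals from limma, the grey band holds the middle 90% of all entries tested and the dashed line their median. In morulae Acaa2 (-0.82) lies below the band, which starts at -0.77, and the interval of Hadhb (-0.35 to 0.47) crosses 0.

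Whether the effect of TMZ differed between the stages was tested in 1 fit of all 8 libraries, as the morula effect minus the 8-cell effect. Of the 5 thiolases 0 passed an unadjusted P under 0.05, which 7.11% of the 7833 genes tested did. The difference was -0.22 for Acaa2 (95% interval -1.07 to 0.63, adjusted p = 0.969), so a fall in morulae and its absence from the calls at the 8-cell stage do not show a different effect. For Acat2 it was 0.69 (95% interval -0.16 to 1.54, adjusted p = 0.817) and for Acat1 0.53 (95% interval -0.27 to 1.32, adjusted p = 0.897). Acat2 passed without 8-cell control replicate 2 (1.01, adjusted p = 0.775), and Acat1 without library A (0.75, adjusted p = 0.376). The differences of Hadhb (0.11, adjusted p = 0.991) and Scp2 (-0.09, adjusted p = 0.993) were smaller than their errors.

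Within a library, Acat2 had the highest FPKM of the thiolases in 6 of the 8 libraries, behind Acat1 in 8-cell control replicate 2 and behind Hadhb in library A. Acaa1a was the lowest in all 8, and Acaa2 was next to it in 7. This order depends on the exonic lengths that FPKM divides by, 6595 bases for Hadhb and 2544 for Acat2. In fragments Hadhb exceeded Acat2 in each library, as 4701 against 2215 in morula control replicate 1. In 8-cell controls the ranges of Acat2, Hadhb, Acat1 and Scp2 overlapped from each to the next, while Acaa2 lay below Scp2 without overlap. Among the 8-cell TMZ libraries the ranges of Hadhb, Acat2, Scp2 and Acat1 overlapped in the same way, and Acaa2 lay below all of them. In control morulae the order of mean levels was Acat2, Scp2, Hadhb, Acaa2 and Acat1, and Acaa2 overlapped both of its neighbours. TMZ morulae had the order Acat2, Hadhb, Scp2, Acat1 and Acaa2, with Acaa2 under the lowest value of Acat1 and with Scp2 and Acat1 overlapping.

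The summed FPKM of the 6 thiolases rests on the same exonic lengths. It was 95.7 and 86.3 in 8-cell controls, 84.6 in library A and 60.6 in library B. In morulae the sum was 108 and 117 in controls and 103.2 and 110.1 with TMZ. Acaa2 made up 16.3% and 19.5% of the sum in control morulae and 10.1% and 10.4% in TMZ morulae. In 8-cell controls its share was 11.5% and 13.6%, and it was 10.4% in library A and 9.65% in library B. The share of Acat2 in morulae was 24.5% and 24.2% without TMZ and 28.6% and 33.7% with it.

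**Figure D5:**
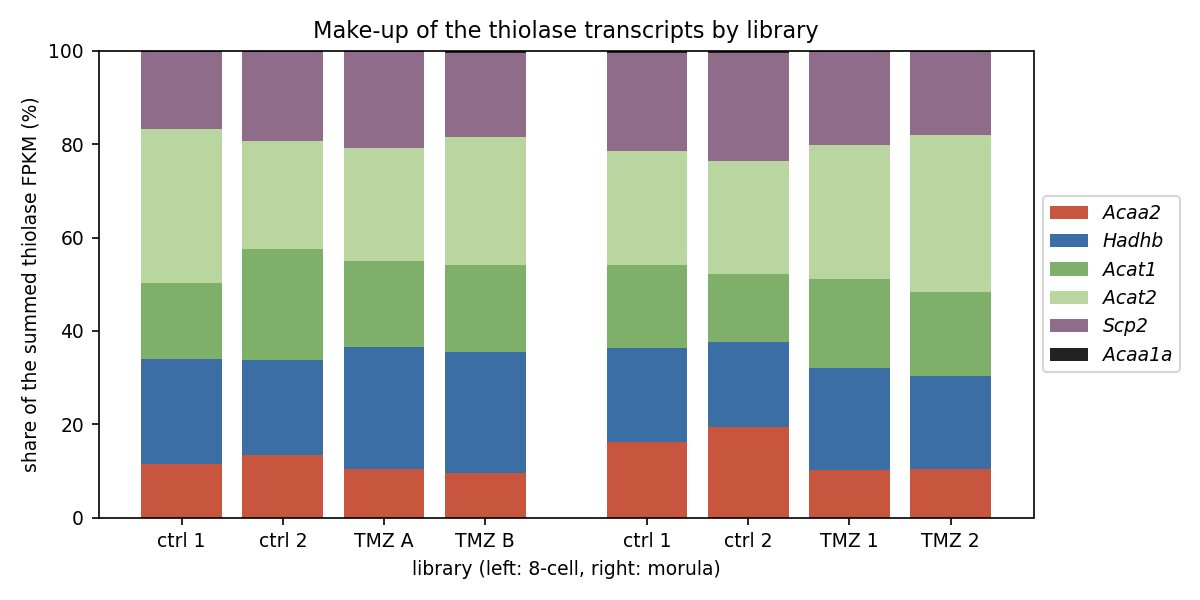
Share of the summed thiolase FPKM, in percent (vertical), taken by each of the 6 genes in each library (horizontal), 8-cell libraries on the left and morula libraries on the right. The lowest segment, Acaa2, takes 16.3% and 19.5% in control morulae and 10.1% and 10.4% in TMZ morulae, and Acaa1a takes under 0.5% in each library.

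Control levels of the stages can be set side by side only with care, because FPKM is relative to the total of each library, and they were not tested. Mean control FPKM of Acaa2 was 11.4 at the 8-cell stage and 20.2 in morulae, and that of Scp2 was 16.1 and 24.9. Hadha stood at 1.79 and 3.47. Hadhb (19.5 and 21.4), Acat1 (18.1 and 18.1) and Acat2 (25.7 and 27.3) had closer control means. In TMZ morulae Acaa2 lay near the level of the 8-cell controls, a likeness across stages that was not tested either. The part of the delay reported with TMZ in this likeness was not tested.

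The pathways that thiolases close were read from 5 lists of other genes. Mitochondrial β-oxidation had 14 of its 19 genes tested at each stage. At the 8-cell stage 0 were called, where 4.96% of all entries were called lower and 1.35% higher. The median log2 fold change there was -0.09, beside -0.19 for all entries. In morulae 3 of the 14 were called lower, against 10.7% of all entries, and 1 higher, against 7.16%, and the median was -0.28, beside -0.08 for all entries. Besides Hadha, the genes called lower were Acadvl, the very-long-chain acyl-CoA dehydrogenase (2.998 and 2.90 FPKM in controls, 1.75 and 1.43 FPKM with TMZ, log2 fold change -0.61, adjusted p = 0.213), and Hadh, the medium- and short-chain hydroxyacyl-CoA dehydrogenase. Hadh stood at 21.8 and 31.7 FPKM in controls and 19.2 and 16.1 FPKM with TMZ (log2 fold change -0.56, adjusted p = 0.254), and lost its call in 6 of 9 other settings. Etfdh, which passes electrons from the dehydrogenases to ubiquinone, rose from 1.08 and 1.63 FPKM to 2.699 and 3.19 FPKM (log2 fold change 0.75, adjusted p = 0.193). The groups of these 3 genes did not overlap, but each lost its call with at least 1 library left out. Without overlap, 33.3% of all morula entries lay below the controls and 22.3% above. The median of the list at the 8-cell stage was 0.15 under median-ratio scaling.

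Peroxisomal β-oxidation had few genes above the minimum, 5 of 17 at the 8-cell stage and 6 in morulae. In 8-cell embryos 2 of the 5 were called lower, against 4.96% of all entries, and 0 higher, against 1.35%, with a median log2 fold change of -0.43, beside -0.19 for all entries. Hsd17b4, the bifunctional enzyme of the hydratase and dehydrogenase steps before Scp2, stood at 2.75 and 3.13 FPKM in controls, 1.32 FPKM in library A and 0.390 FPKM in library B (log2 fold change -1.13, adjusted p = 0.771). Decr2, a dienoyl-CoA reductase needed for unsaturated chains, fell at both stages. Its 8-cell levels were 11.5 and 10.4 FPKM in controls against 5.39 and 4.82 FPKM in libraries A and B (log2 fold change -0.97, adjusted p = 0.771). In morulae it was 8.97 and 16.5 FPKM in controls and 6.38 and 6.56 FPKM with TMZ (log2 fold change -0.82, adjusted p = 0.213), the 1 call among the 6 genes tested, where 10.7% of all entries were called lower, and their median was -0.53, beside -0.08 for all entries. Decr2 lost its 8-cell call under median-ratio scaling and quantile normalization, and its morula call with no minimum level. With libraries left out it lost calls at both stages. Hsd17b4 lost its call under quantile normalization and without either control or library B.

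Ketone body metabolism, the route of Acat1, had 4 of its 9 genes tested at each stage. In 8-cell embryos 0 were called, against 4.96% of all entries called lower and 1.35% higher. The median log2 fold change was 0.29, beside -0.19 for all entries. In morulae 1 of the 4 was called lower, against 10.7% of all entries, and the median was -0.58, beside -0.08. Aacs, the cytosolic enzyme that turns acetoacetate into acetoacetyl-CoA, was measured at 13.5 and 14.5 FPKM in control morulae and 6.15 and 5.69 FPKM in TMZ morulae. The groups were far apart relative to their spread, and the log2 fold change was -1.12 (SE 0.190, adjusted p = 0.161). Its call held in all 9 other settings and with each of the 4 libraries left out.

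The breakdown of branched-chain amino acids, in which Acat1 takes the last step for isoleucine, had 14 of 19 genes tested at the 8-cell stage and 15 in morulae. None of these was called by limma, where 4.96% of all 8-cell entries were called lower and 1.35% higher. In morulae these shares were 10.7% and 7.16%. The medians of the list were -0.32 and -0.29, beside -0.19 and -0.08 for all entries. Under median-ratio scaling or quantile normalization 1 of its genes was called higher in morulae. Mevalonate and sterol synthesis, which starts from the product of Acat2, had 16 of 19 genes tested at each stage, with medians of -0.33 and -0.21 and 1 call at each, beside the shares and medians of all entries given above. Cyp51, the lanosterol demethylase, was called lower at the 8-cell stage (5.88 and 2.51 FPKM in controls, 1.12 and 1.59 FPKM in libraries A and B, log2 fold change -1.07, adjusted p = 0.771), and lost this call under median-ratio scaling, quantile normalization and no minimum level, and without control replicate 1 or library A. Ebp, a sterol isomerase, was called higher in morulae, at 35.4 and 45.2 FPKM in controls and 54.9 and 83.8 FPKM with TMZ (log2 fold change 0.75, adjusted p = 0.205). Without TMZ replicate 2 or control replicate 1, or with no minimum level, Ebp was no longer called.

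The genes whose levels most resembled each thiolase over the 8 libraries were sought among 3801 protein-coding genes, by Pearson's r of log2(FPKM + 1). The libraries share stage and treatment, so these values describe likeness and were not tested. They are the highest of 3801 values of r over only 8 libraries, which can be high for unrelated genes too. They also rest on levels compared across the stages. Closest to Acaa2 were Utf1 (r = 0.969) and Jarid2 (r = 0.964), and closest to Scp2 were Ap2a2 (r = 0.989) and Mien1 (r = 0.986). Hadhb was most like Swi5 (r = 0.964) and Uqcrfs1 (r = 0.963), the iron-sulfur subunit of respiratory complex III. Acat1 was most like Czib (r = 0.972) and Coq7 (r = 0.961), a hydroxylase of ubiquinone synthesis, and Acat2 most like Atp6v1f (r = 0.951) and Cib1 (r = 0.939).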

How the data were processed

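Reads were trimmed with fastp 0.23.4, aligned to GRCm39 with STAR 2.7.9a and counted per gene with featureCounts 2.0.6, per the submitters' processing notes; the annotation release and the strand and multimapping settings are not given in the sources used here. The authors deposited FPKM values in a table per stage. The study tested raw counts, which were not used here, and its methods speak of 6 replicates, whereas 2 libraries per group were analysed. The values are whole multiples of 1 fragment, which gave library totals and, up to a whole factor, gene lengths and the smallest fragment numbers possible. Lengths were aligned in order of Ensembl identifiers to GENCODE vM39 exonic lengths, from transcripts numbered up to 250000, by a pair hidden Markov model, naming 23499 of 31899 entries (8-cell) and 20311 of 29202 (morula). TMZ was compared with control by limma 3.58.1 (R 4.3.3), with a trend and no covariates, on log2(FPKM + 1), leaving out entries that averaged under 1 FPKM. The fits were tested on simulated data. Members and lists were chosen with earlier results of these data known. Named genes are the 6 thiolases, Acaa1b, Acat3, Hadha, each list gene called at a stage, and the 2 genes most like each tested thiolase with a mean of at least 5 FPKM. Fragment numbers carry counting error only.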

Additional observations from a re-analysis of the deposited data

How the results depend on the processing

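The fall of Acaa2 in morulae kept its direction and its call under all 14 alternatives run. The other 4 thiolases tested in morulae kept their direction and stayed uncalled in each. The alternative of a 0.99 posterior only drops names. The tested thiolases kept theirs, so it could not change their values or calls. At the 8-cell stage Hadhb turned to 0.19 under median-ratio scaling and to 0.11 under quantile normalization, and Scp2 to 0.034 under median-ratio scaling. With single libraries left out, where the lone library of a group is assumed to vary like the other group, the 8-cell log2 fold changes ran from -0.85 to -0.34 for Acaa2, from -0.29 to 0.19 for Hadhb, from -0.63 to -0.19 for Acat1, from -0.74 to -0.11 for Acat2 and from -0.51 to 0.11 for Scp2, and 0 to 1 thiolases were called lower. The stage difference of Hadhb was -0.012 under median-ratio scaling. Leaving out single libraries, it ran from -0.13 to 0.35 for Hadhb, from -0.48 to 0.035 for Acaa2, from 0.30 to 0.75 for Acat1, from 0.38 to 1.01 for Acat2 and from -0.40 to 0.22 for Scp2. The cause of these changes was not tested.

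Counts over all entries moved more. At the 8-cell stage 135 entries were called higher and 497 lower, 21.4% of the calls higher, against 273 and 274 (49.9%) under median-ratio scaling, 283 and 281 under quantile normalization, 60 and 221 at a mean of at least 5 FPKM, which tests fewer entries, and 810 lower in the fit of all 8 libraries. In morulae 693 higher and 1040 lower (39.99% higher) became 944 and 766 (55.2%) under median-ratio scaling, 855 and 808 under quantile normalization, 461 and 597 at a mean of at least 5 FPKM, and 311 and 472 in the fit of all 8 libraries. With single libraries left out, 86 to 495 were higher and 190 to 1569 lower at the 8-cell stage, the last without library B, and 344 to 823 higher and 449 to 1062 lower in morulae.

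Morula libraries share replicate numbers but no stated pairing. The deviations of same-numbered libraries correlated at r = 0.076 over 9685 entries. With a replicate block, 838 entries were higher and 1151 lower, 229 against 3 at an adjusted p under 0.05 (limma), and the Acaa2 log2 fold change was -0.82. No paired analysis was possible at the 8-cell stage because both TMZ columns carry the same number in their header. Leave-outs of the Hadhb to Hadha ratio were added after the data were seen. Acaa1a was tested only without the minimum level. At a posterior of 0.99 the morula Acaa1a entry has no name. Fragment numbers of 26 to 84 limit Acaa1a.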
